A study of Mus musculus with 12 samples.

Results

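Alveolar type 1 cells were followed in A/J mouse lung through 5 genes that mark them: Pdpn, Ager, Aqp5, Emp2 and Igfbp2. All probe sets annotated to these symbols were taken, on every array. Pdpn, Ager, Emp2 and Igfbp2 had 1 probe set each, and these were 4 of 12422 probe sets without controls. Aqp5 had 0 probe sets in the annotation used and was not analysed here. All 4 probe sets passed the filter on low signal, which left 7453 probe sets for testing.

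Lungs of A/J mice, a laboratory inbred strain in which lung tumours arise readily, gave total RNA that was hybridised to 12 Affymetrix MG_U74Av2 arrays. All were controls that received saline, and the labels name no other agent and no altered allele. 5 arrays were from 24 to 26 weeks after the injection (AJ1, AJ2, AJ4, LZ2 and LZ3) and 7 from 42 weeks (LZ22, LZ23, LZ24, LZ25, LZ61, LZ62 and LZ63). The sources used here do not give the age at injection, the sex, or whether each array came from a separate animal, so the p-values rest on a spread between arrays that may be technical. The array names fall into 4 ranges, AJ1 to AJ4, LZ2 to LZ3, LZ22 to LZ25 and LZ61 to LZ63. Each range was run on its own day, and each run day held 1 time point. The array LZ63 stood apart from the others: skeletal muscle actin Acta1 read 20112 and the squamous keratin Krt4 read 19799 there, against means of 201 ± 118 and 280.1 ± 46.6 (SD, n = 5) at 24 to 26 weeks.

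The alveolus is lined by 2 epithelial cell types. Type 1 cells are thin and flat, cover most of the gas exchange surface, and share a basement membrane with the capillary endothelium. Type 2 cells make surfactant, and in the mouse they can divide and give rise to type 1 cells. Podoplanin, the product of Pdpn, is a mucin-like membrane glycoprotein of type 1 cells that is also made by lymphatic endothelium and mesothelium, and it is a ligand of the platelet receptor CLEC-2. Ager encodes RAGE, an immunoglobulin-family receptor that is unusually abundant in normal lung. Aqp5 encodes a water channel of the apical membrane, Emp2 a membrane protein of the PMP22 family that acts on integrin and caveolin trafficking, and Igfbp2 a secreted binding protein for insulin-like growth factors. In whole lung RNA, fewer cells of a type and less RNA per cell cannot be told apart.

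The promoters of the 4 measured genes are shown because these genes mark 1 cell type, and Pdpn followed the other 3 less closely across the arrays than Ager followed Emp2 and Igfbp2. Each stretch is 300 bases from RefSeq (build GRCm38.p6), 250 before and 50 after the start the table gives, written on the gene's strand. Capitals mark GC boxes, the SP1 motif GGGCGG on either strand, which reads CCGCCC where it lies on the opposite strand. The windows are chr4:143299515-143299814 (minus strand) for Pdpn, chr17:34597600-34597899 (plus) for Ager, chr16:10313919-10314218 (minus) for Emp2 and chr1:72824230-72824529 (plus) for the first listed start of Igfbp2.
Pdpn: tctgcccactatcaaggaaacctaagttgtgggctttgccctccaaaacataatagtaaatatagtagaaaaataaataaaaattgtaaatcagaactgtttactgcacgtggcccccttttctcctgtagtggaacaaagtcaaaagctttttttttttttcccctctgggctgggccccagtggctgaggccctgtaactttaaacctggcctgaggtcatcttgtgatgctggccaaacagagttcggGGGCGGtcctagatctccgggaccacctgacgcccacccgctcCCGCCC
Ager: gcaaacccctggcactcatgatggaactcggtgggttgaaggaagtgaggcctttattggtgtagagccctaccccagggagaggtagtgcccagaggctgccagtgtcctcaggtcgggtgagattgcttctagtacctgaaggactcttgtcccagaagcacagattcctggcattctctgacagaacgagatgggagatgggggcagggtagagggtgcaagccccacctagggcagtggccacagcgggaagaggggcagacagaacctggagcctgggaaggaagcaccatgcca
Emp2: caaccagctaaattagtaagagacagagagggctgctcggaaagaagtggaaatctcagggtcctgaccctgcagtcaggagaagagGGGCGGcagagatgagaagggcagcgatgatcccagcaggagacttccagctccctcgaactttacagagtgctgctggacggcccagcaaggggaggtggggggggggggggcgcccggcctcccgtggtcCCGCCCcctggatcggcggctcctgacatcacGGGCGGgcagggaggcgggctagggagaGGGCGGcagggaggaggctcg
Igfbp2: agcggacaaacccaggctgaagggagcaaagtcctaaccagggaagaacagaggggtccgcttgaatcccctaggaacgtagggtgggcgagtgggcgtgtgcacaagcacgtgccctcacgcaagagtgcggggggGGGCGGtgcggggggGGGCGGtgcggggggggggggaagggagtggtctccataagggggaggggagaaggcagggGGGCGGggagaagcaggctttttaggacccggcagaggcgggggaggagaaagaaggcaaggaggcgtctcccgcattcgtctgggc
The windows differed in base composition, with a GC content of 48.7% for Pdpn, 58.3% for Ager, 65.7% for Emp2 and 67.0% for Igfbp2, against a median of 52.7% over all promoters in the table. A GC box was found in 3 of the 4 windows and not in that of Ager, and in 35.7% of all 32851 promoters. The Ager window lies inside the span of the gene, which begins at chr17:34597460, so the bases before that position were not searched. Searched on both strands, the TEAD motif GGAATG was in 0 of the 4 windows (14.7% of all promoters), the NKX2-1 core CTCAAG in 0 (15.9%) and the TATA motif TATAAA in 0 (13.6%). The window of a second listed start of Igfbp2, not printed, held 1 NKX2-1 core match and no GC box, with a GC content of 57.3%. These matches describe letters in the windows only.

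Pdpn had the clearest difference between the time points. Its probe set (gene at chr4:143267409-143299564) gave signals, in the MAS5 units of the deposited table, of 1449 on AJ1, 1363 on AJ2, 1401 on AJ4, 1288 on LZ2 and 1395 on LZ3. At 42 weeks it gave 2516 on LZ22, 1748.5 on LZ23, 1866 on LZ24, 2283 on LZ25, 1984 on LZ61, 2094 on LZ62 and 1603 on LZ63. Each of the 7 arrays at 42 weeks read above each of the 5 at 24 to 26 weeks, and LZ63 was the lowest of the 7. Such groups without overlap were seen for 1.5% of all tested probe sets.

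The Pdpn mean was 1379 ± 59.4 (SD, n = 5) at 24 to 26 weeks and 2014 ± 314 (SD, n = 7) at 42 weeks, a log2 difference of 0.53 (SE 0.11, 95% interval 0.30 to 0.76), or 1.45-fold. The coefficient of variation was 4.31% at the earlier and 15.6% at the later time. The difference did not pass the test set here, limma with Benjamini-Hochberg adjustment over all probe sets at 5% false discovery (unadjusted p = 0.000184, adjusted p = 0.0643). Of all tested probe sets, 0.0805% passed (6 of 7453), and 0 of the 4 genes did. By unadjusted p, Pdpn ranked 19, and 2.7% of tested probe sets had a higher difference, a share that leaves out large falls. A two-sided exact permutation test on Pdpn alone gave p = 0.00253, where the smallest possible p is 0.00126. Without LZ63 the difference was 0.58 and passed in limma (adjusted p = 0.0268). With the run day as a random block it was 0.53 and did not pass (adjusted p = 0.418).

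**Figure D1:**
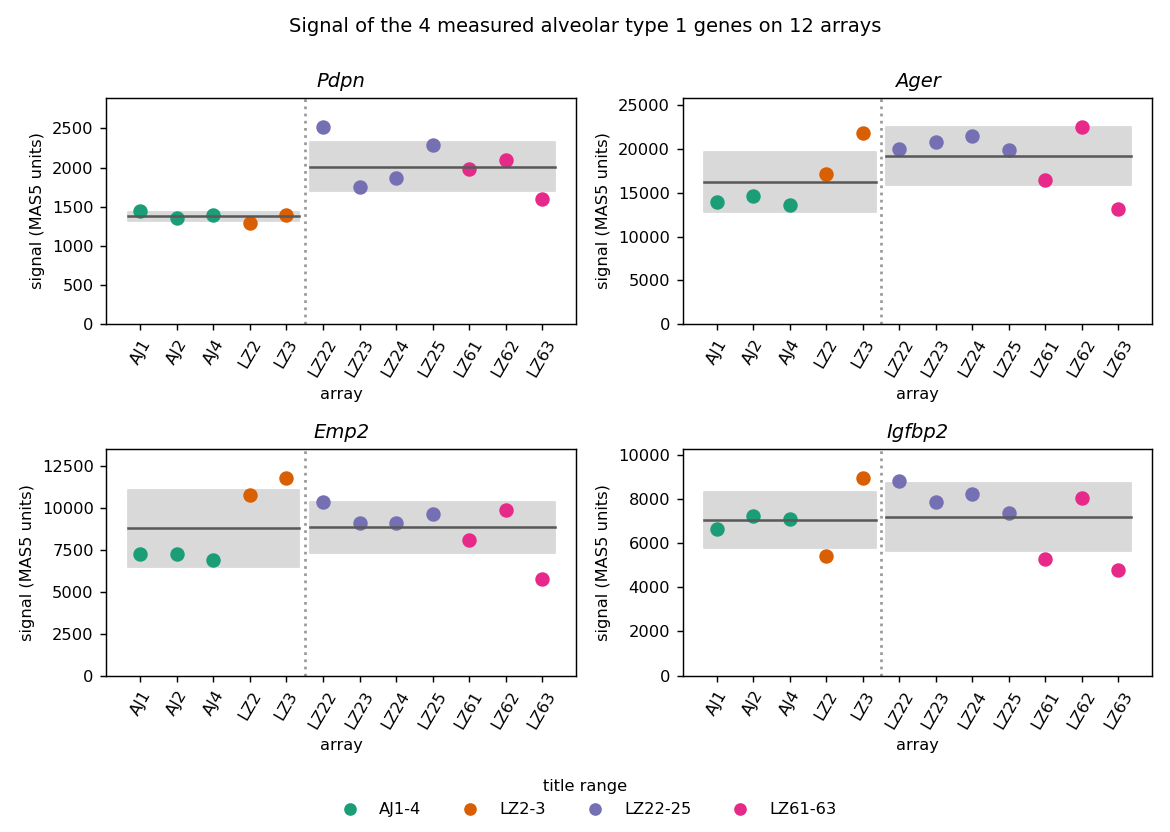
Signal in MAS5 units (vertical axis, from 0) on each of the 12 arrays (horizontal axis) for Pdpn, Ager, Emp2 and Igfbp2; points are arrays coloured by title range, lines are time point means and grey bands 1 SD. For Pdpn the points at 42 weeks, 1603 to 2516, lie above all points at 24 to 26 weeks, 1288 to 1449, while the other genes overlap.

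Other cells that make podoplanin were followed by their own markers. Of 6 lymphatic endothelial markers 2 were tested, and 0 passed between the time points in limma: Lyve1, a hyaluronan receptor, read 706 ± 233 and 432 ± 58.0 (log2 difference -0.65, adjusted p = 0.145), and Flt4, the receptor for VEGF-C, had a difference of -0.05. Prox1, which defines lymphatic endothelium, read 3.5 to 21.9 and was too low to be tested. Without LZ3 the Lyve1 difference was -0.82 and passed (limma adjusted p = 0.0473). Of 9 mesothelial markers 5 were tested and 0 passed. All 5 had a difference above 0, with a median of 0.23 against -0.04 over all tested probe sets. The 5 included the keratin genes Krt18 at 0.28 and Krt8 at 0.18, and Msln at 0.25. Wt1, which defines mesothelium, was too low to be tested at 34.2 to 112.9. The part of these cells in the Pdpn signal was not tested.

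Ager is the receptor RAGE (gene at chr17:34597460-34600937). Its signal was 13893 on AJ1, 14639 on AJ2, 13583 on AJ4, 17099.8 on LZ2 and 21794 on LZ3. At 42 weeks it was 19988 on LZ22, 20743 on LZ23, 21505 on LZ24, 19877 on LZ25, 16434 on LZ61, 22458 on LZ62 and 13103 on LZ63. The 3 AJ arrays and LZ63 were the low ones, and the time points overlapped. Ager was among the brightest probe sets, at rank 9 to 19 on 10 arrays, 35 on LZ61 and 62 on LZ63. The means were 16202 ± 3417 (SD, n = 5) and 19158 ± 3271 (SD, n = 7), a log2 difference of 0.24 (95% interval -0.07 to 0.56), which did not pass in limma (adjusted p = 0.458). The 75 brightest probe sets had a median time difference of 0.23, and after quantile normalisation that of Ager was -0.04.

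Emp2 (gene at chr16:10281749-10313968) read 7265 on AJ1, 7234.5 on AJ2, 6889.5 on AJ4, 10779.6 on LZ2 and 11749.7 on LZ3. At 42 weeks it read 10337 on LZ22, 9120.2 on LZ23, 9098 on LZ24, 9640.4 on LZ25, 8107 on LZ61, 9855 on LZ62 and 5768 on LZ63. The 3 AJ arrays lay below every later array except LZ63, and both early LZ arrays lay above all 7 later ones. The time point means were 8784 ± 2295 (SD, n = 5) and 8846 ± 1529 (SD, n = 7), a log2 difference of 0.03 (95% interval -0.33 to 0.38, limma adjusted p = 0.966).

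Igfbp2 (gene at chr1:72824480-72852474) read 6613.5 on AJ1, 7209.8 on AJ2, 7101 on AJ4, 5392 on LZ2 and 8920.5 on LZ3. At 42 weeks it read 8790.3 on LZ22, 7838 on LZ23, 8238 on LZ24, 7349.9 on LZ25, 5294 on LZ61, 8028 on LZ62 and 4762 on LZ63. LZ63, LZ61 and LZ2 were the 3 low arrays, from both time points. The means were 7047 ± 1271 (SD, n = 5) and 7186 ± 1544 (SD, n = 7), a log2 difference of 0.01 (95% interval -0.33 to 0.36, limma adjusted p = 0.978). The intervals of Emp2 and Igfbp2 leave room for differences of about the size of that of Ager in either direction. Over all 12 arrays the coefficient of variation was 23.0% for Pdpn, 19.6% for Ager, 20.3% for Emp2 and 19.3% for Igfbp2.

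Within 24 to 26 weeks, Emp2 and Ager read lower on the 3 AJ arrays than on both LZ arrays, and Pdpn and Igfbp2 did not separate by prefix. Emp2 averaged 7130 ± 209 (SD, n = 3) against 11265 ± 686 (SD, n = 2), a log2 difference of -0.66 (95% interval -1.02 to -0.29, limma adjusted p = 0.0591). Without LZ63 in the fit, which left these 5 arrays as they were, Emp2 passed at -0.66 (limma adjusted p = 0.00412), and without LZ62 at -0.66 (0.02). Ager averaged 14038 ± 543 against 19447 ± 3319, a difference of -0.46 (95% interval -0.84 to -0.08, limma adjusted p = 0.185). The difference was 0.07 for Pdpn (95% interval -0.29 to 0.42) and 0.01 for Igfbp2 (95% interval -0.47 to 0.48). With all arrays in the fit 0 of the 4 genes passed, where 2.5% of all tested probe sets passed. Groups without overlap, as for Emp2 and Ager, were seen for 41.1% of all probe sets in this comparison of 3 arrays with 2.

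The top of the signal scale also differed between these arrays. The highest signal on any AJ array was 19066 to 21497, against 30665 on LZ2 and 39943 on LZ3, and the 75 brightest probe sets had a median AJ minus LZ difference of -0.45 against 0.04 over all probe sets. After quantile normalisation the difference was 0.04 for Ager and -0.42 for Emp2. Surfactant protein C, Sftpc, a defining type 2 transcript, was lower on the AJ arrays (19426 ± 1406 against 35304 ± 6561, log2 difference -0.85, limma adjusted p = 0.0154), and so was the membrane mucin Muc1 (-0.58, limma adjusted p = 0.0476). The 11 tested type 2 markers had a median difference of -0.21, with 3 above 0 and 7 below. Sftpc and Muc1 were the 2 that passed. Without LZ3 neither did, nor did Sftpc without AJ4 (-0.81, limma adjusted p = 0.0712) or after quantile normalisation (-0.16), and Muc1 passed only without LZ22, LZ62 or LZ63 among the arrays left out in turn. Of 5 tested club cell markers 2 passed as well, both lower on the AJ arrays: the secretory protein gene Scgb1a1 (17220.2 ± 979 against 29671 ± 5419, -0.77, limma adjusted p = 0.015) and the cytochrome P450 gene Cyp2f2 (-0.50, limma adjusted p = 0.0459). The 5 club cell markers had a median of -0.40, with 3 below 0 and 2 above, Aldh1a7 at 0.45 and Gsta3 at 0.18. After quantile normalisation Scgb1a1 was -0.13 and Cyp2f2 -0.09, and neither passed. Scgb1a1 did not pass without AJ4 (-0.73) or LZ3 (-0.59), and Cyp2f2 passed in 2 of 12 fits that leave out 1 array (LZ62 or LZ63). The part of the signal scale, of type 2 cells and of club cells in the Emp2 and Ager values was not tested.

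Within 42 weeks, all 4 genes had lower means on LZ61 to LZ63 than on LZ22 to LZ25, and 0 of 4 passed, where 1.5% of all tested probe sets passed. Igfbp2 averaged 6028 ± 1752 (SD, n = 3) against 8054 ± 611 (SD, n = 4), a log2 difference of -0.45 (95% interval -0.85 to -0.06, limma adjusted p = 0.198). The difference was -0.30 for Emp2, -0.28 for Ager and -0.14 for Pdpn (limma adjusted p = 0.256, 0.311 and 0.59). Without LZ63 these became -0.30 for Igfbp2, -0.09 for Emp2, -0.09 for Ager and -0.03 for Pdpn. Of 8 tested macrophage markers 1 passed, the lysosomal Cd68, lower on LZ61 to LZ63 (-0.98, limma adjusted p = 0.0451). It passed in 1 of 12 fits that leave out 1 array (LZ61), and without LZ63 the difference was -0.66.

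**Figure D2:**
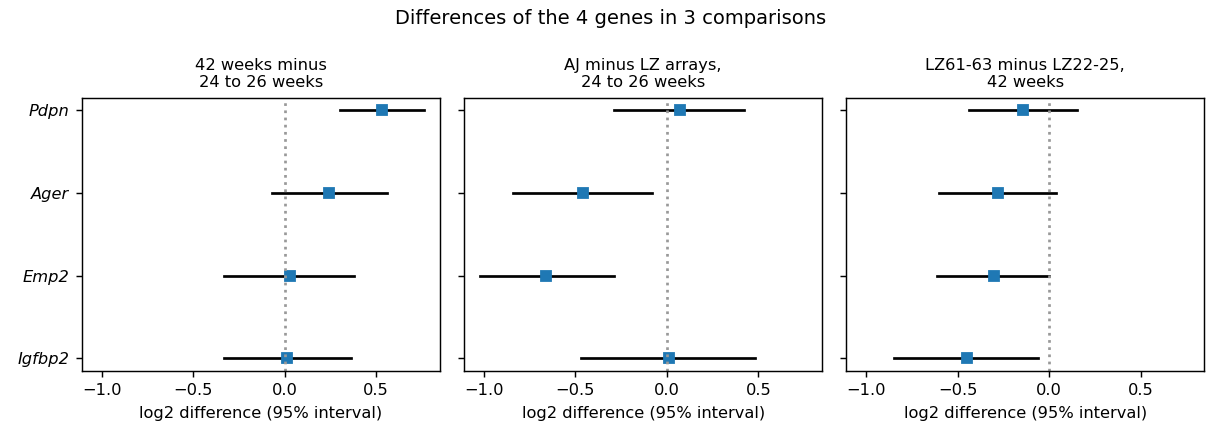
Log2 differences (horizontal axis) with 95% intervals from limma for the 4 genes in 3 comparisons: 42 weeks minus 24 to 26 weeks, AJ minus LZ arrays at 24 to 26 weeks, and LZ61 to LZ63 minus LZ22 to LZ25 at 42 weeks. The interval of Pdpn lies above 0 only in the first panel (0.30 to 0.76). Below 0 lie those of Emp2 (-1.02 to -0.29) and Ager (-0.84 to -0.08) in the second and of Igfbp2 (-0.85 to -0.06) in the third.

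LZ63 gave the lowest of all 12 values for Ager, Emp2 and Igfbp2. Relative to the median array, the log2 signal on LZ63 was -0.49 for Ager, -0.66 for Emp2, -0.61 for Igfbp2 and -0.06 for Pdpn. For Pdpn the median fell between the time points. The earlier arrays lay at -0.38 to -0.21 for Pdpn, and the arrays at 42 weeks other than LZ63 at 0.06 to 0.59. Pdpn read 1603 on LZ63, against 2082 ± 281 (SD, n = 6) on the other arrays at 42 weeks. On LZ63 the median of 19 other type 1 genes was -0.37 (-0.12 to 0.18 on the other 11 arrays). That of 11 type 2 markers was -0.40, that of 12 endothelial markers -0.48 and that of 8 macrophage markers -0.46. Not all lung lists were low there. The median was 0 for 5 club cell markers, 0.24 for 5 mesothelial markers, 0.32 for 17 fibroblast markers and 0.22 for 3 genes of alveolar ion and water transport. The median of 4 skeletal muscle markers was 4.83 and that of 3 squamous epithelium markers 5.07. The highest signals outside lung lists on LZ63 included the cornified envelope gene Lor at 12579 and the keratinocyte gene Krtdap at 13259. The part of these other tissues in the lower type 1 values was not tested.

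**Figure D3:**
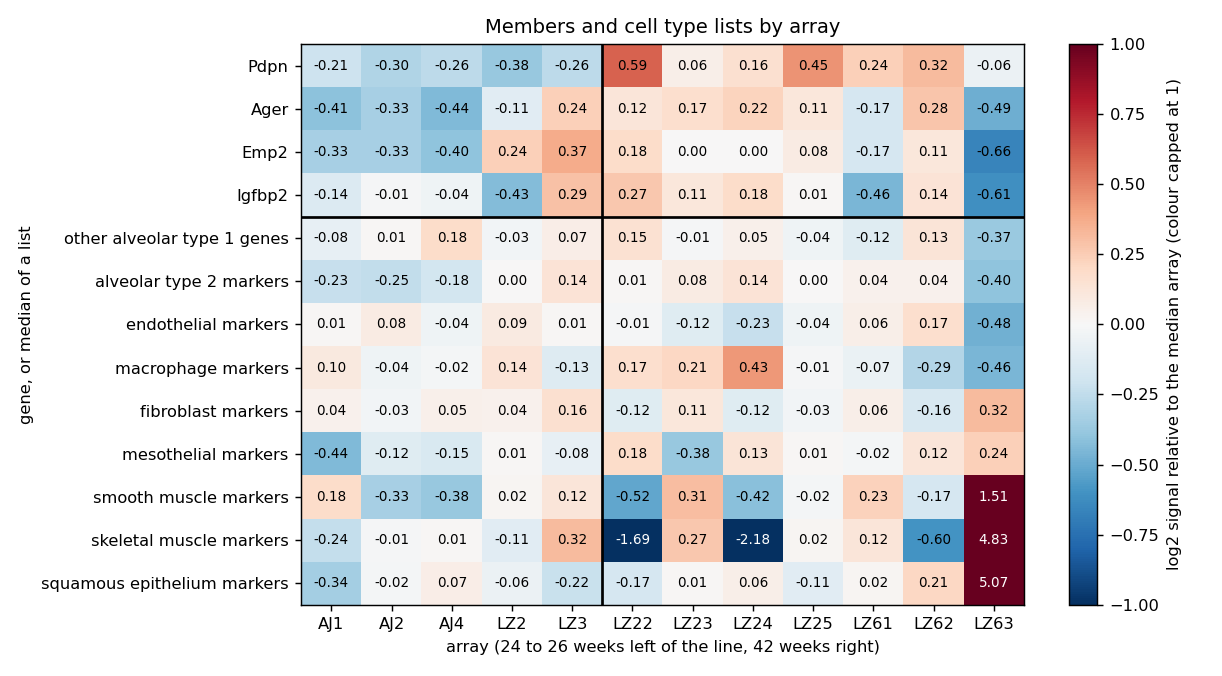
Log2 signal relative to the median array, by array (columns) and by gene or list median (rows), with the colour capped at 1 and the value printed in each cell. LZ63 is low for Ager (-0.49), Emp2 (-0.66) and Igfbp2 (-0.61) and for the alveolar, endothelial and macrophage lists. It is high for the skeletal muscle and squamous lists (4.83 and 5.07) and above 0 for the smooth muscle (1.51), fibroblast (0.32) and mesothelial (0.24) lists.

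Over all 12 arrays, each pair among Ager, Emp2 and Igfbp2 had a higher correlation than each pair with Pdpn. Ager with Emp2 and Ager with Igfbp2 kept this order without LZ63 and with values centred within title ranges. Emp2 with Igfbp2 did not: it fell below Pdpn with Ager without LZ63, and below Pdpn with Emp2 when centred. The difference between correlations was not tested. Of 6 pairs, Ager with Emp2 had a Pearson r of 0.85 over the 12 arrays (permutation p = 0.00053, adjusted over the pairs 0.00318) and a Spearman rho of 0.78 (permutation p = 0.00399, adjusted 0.012). Without AJ4 and LZ63, the arrays farthest from the Ager median, r was 0.75, and with values centred within the title ranges it was 0.86. Ager with Igfbp2 had r = 0.68 (permutation p = 0.016, adjusted 0.0481) and rho = 0.82 (permutation p = 0.00202, adjusted 0.012), with r = 0.65 without AJ4 and LZ63 and 0.89 centred. Emp2 with Igfbp2 had r = 0.56 (permutation p = 0.058, adjusted 0.116) and rho = 0.62 (permutation p = 0.038, adjusted 0.0761), with r = 0.35 without AJ4 and LZ63, 0.32 without LZ63 alone and 0.72 centred.

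Pdpn had r = 0.52 to Ager, 0.27 to Emp2 and 0.30 to Igfbp2 (permutation p adjusted over the pairs 0.126, 0.401 and 0.4). Without LZ22 and LZ25, the arrays farthest from the Pdpn median, these were 0.48, 0.05 and 0.10. Without LZ63 alone they were 0.54, 0.27 and 0.31. Centred within title ranges, r was 0.41 to Ager, 0.74 to Emp2 and 0.45 to Igfbp2. No title range holds enough arrays for a correlation of its own, and arrays of a range share a run day.

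**Figure D4:**
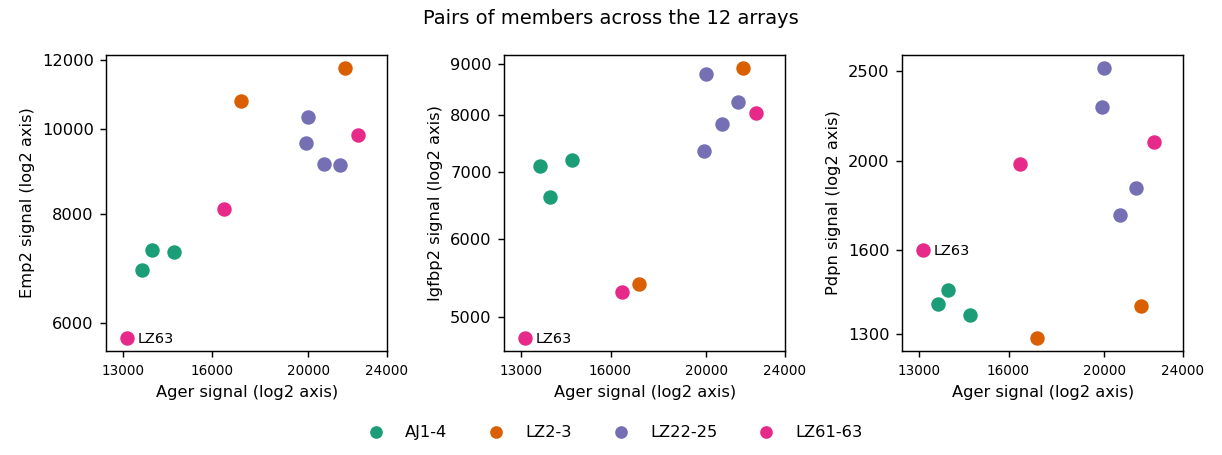
Signal of Emp2, Igfbp2 and Pdpn (vertical axes, log2 scale) against that of Ager (horizontal axis, log2 scale) on the 12 arrays, coloured by title range and with LZ63 named. By Pearson r Emp2 follows Ager most closely (0.85), Igfbp2 less (0.68) and Pdpn least (0.52). By Spearman rho Igfbp2 (0.82) is above Emp2 (0.78), as it is by r centred within title ranges (0.89 and 0.86).

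The genes whose log2 signal followed each gene most closely over the 12 arrays were ranked among 5730 others, with the correlation given as a description since the highest were chosen. For Pdpn they were Abhd8 (r = 0.89), the WNT co-receptor Lrp5 (0.89) and Smn1, which acts in assembly of splicing particles (0.87), and Ager ranked 287. For Ager they were Tmsb10, an actin-binding peptide (0.96), Tmem160 (0.95) and Ppib, a prolyl isomerase of the endoplasmic reticulum (0.94), and Emp2 ranked 33. For Emp2 they were the endothelial tight junction gene Cldn5 (0.96), the actin-capping Tmod3 (0.96) and Napsa, an aspartic protease of type 2 cells (0.96), and Ager ranked 27. For Igfbp2 they were the cytochrome P450 gene Cyp2b10 (0.90), the endothelial adhesion gene Icam2 (0.90) and the nuclear envelope gene Lemd2 (0.86), and Ager ranked 119. Cyp2b10 is itself in the list of other type 1 genes. The probe sets of Tmod3 and Smn1 carry the suffixes by which the array design marks sequence shared between transcripts. So do those of other genes named here, among them Cd68, Itgb1, Emp3 and Bmp4. Without LZ63 these 12 values lay between 0.81 and 0.96.

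The other type 1 genes showed no shared shift with time. Of 32 genes in the list 20 had a probe set and 19 were tested, and 0 passed in either direction in limma. Of the 19, 7 had a difference above 0 and 12 below, with a median of -0.08 against -0.04 over all tested probe sets. Agrn, a heparan sulphate proteoglycan of the basement membrane, read 1994 ± 232 and 1494 ± 280.3 (log2 difference -0.43, adjusted p = 0.172), and the RNA-binding Qk read 1950 ± 458 and 1527 ± 209 (-0.33, adjusted p = 0.309). Hopx, a homeodomain-only cofactor of mature type 1 cells, had a difference of -0.20 and Cav1, the coat protein of caveolae, one of -0.16. S100a14, an S100 protein gene of epithelial cells, was on the higher side, at 2166 ± 853 and 2909 ± 640.4 (0.48, limma adjusted p = 0.328). The difference of 0.53 for Pdpn was above that of every one of the 19. Of the same 19 genes, 0 passed between AJ and LZ arrays (median -0.02) and 0 between the ranges at 42 weeks (median -0.19).

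**Figure D5:**
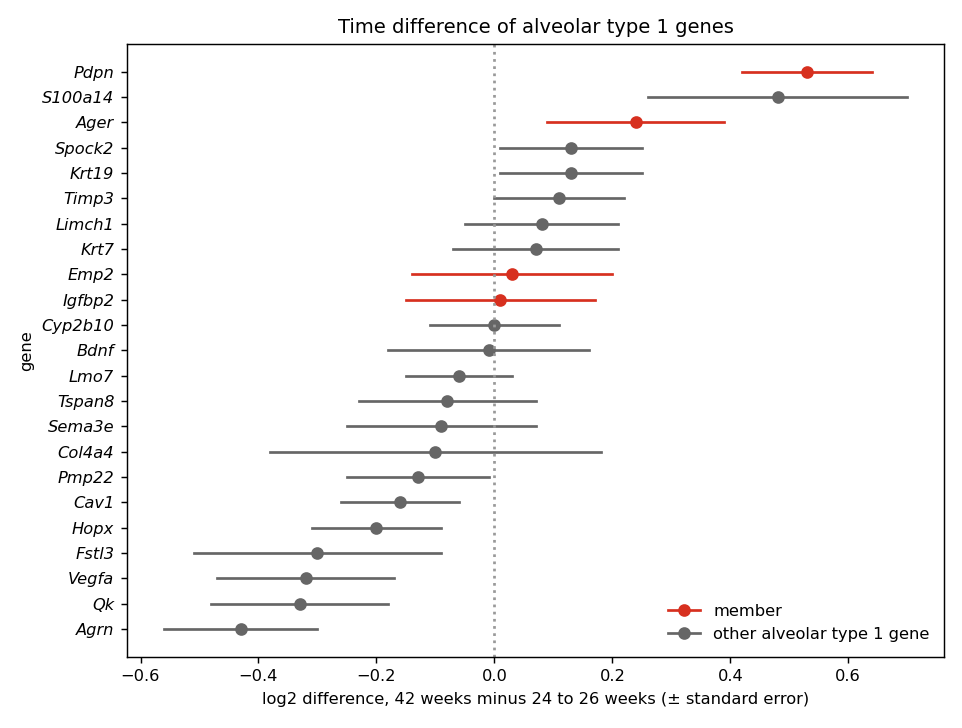
Log2 difference, 42 weeks minus 24 to 26 weeks, with its standard error (horizontal axis) for the 4 genes in red and 19 other type 1 genes in grey, ordered by difference (vertical axis). Pdpn stands at 0.53, and Agrn at -0.43.

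Partners of podoplanin, ligands of RAGE and relatives of the other genes were read from lists of their own, and 0 of their tested members passed between the time points in limma. Among 7 tested podoplanin partners (median -0.05), Lgals8, a galectin that binds podoplanin, had a difference of -0.57 (adjusted p = 0.249) and Rhoa, a small GTPase of the actin cytoskeleton, one of 0.55 (adjusted p = 0.257). In the comparisons within a time point, Rhoa was lower on the AJ than the LZ arrays (2338 ± 256 against 4330.2 ± 412, log2 difference -0.89, limma adjusted p = 0.0447). Lgals8 was lower on LZ61 to LZ63 than on LZ22 to LZ25 (112 ± 10.6 against 197 ± 21.3, -0.81, limma adjusted p = 0.0401). Both calls were close to the threshold: with each array left out in turn, Rhoa passed 4 times of 12 (without LZ23, LZ25, LZ62 or LZ63) and Lgals8 1 time (without LZ3).

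Among 8 tested RAGE ligands and signalling genes (median 0.09), S100a4, a calcium-binding ligand, averaged 524 ± 93.9 on the earlier and 817 ± 146 on the later arrays (log2 difference 0.64, limma adjusted p = 0.0738). Adam10, a protease that sheds RAGE from the membrane, read 732 ± 152 and 588.5 ± 64.2 (-0.30, adjusted p = 0.329). S100a6, another S100 protein, was lower on the AJ than the LZ arrays (7717 ± 793 against 13295 ± 781, -0.79, limma adjusted p = 0.00851). It did not pass without LZ3 (-0.73, limma adjusted p = 0.114) or after quantile normalisation (-0.47). S100b, a classical RAGE ligand, read 22.7 to 71.3 and was too low to be tested.

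In place of the unmeasured Aqp5, 7 of 10 other aquaporins had a probe set and 2 were tested. Aqp1, the water channel of capillary endothelium, read 6716 ± 401 and 6804 ± 969 (log2 difference 0.01, limma adjusted p = 0.977). Aqp4, found in airway epithelium and in skeletal muscle, read 110.1 ± 22.8 and 274 ± 328, with its highest value, 994, on LZ63. Of 8 genes of alveolar ion and water transport 3 were tested, with a median of -0.05.

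Of the 7 tested genes of the PMP22 family and its relatives, 6 had a difference above 0, with a median of 0.07 against -0.04 over all tested probe sets. Emp3 read 2942 ± 481 and 3399 ± 431 (log2 difference 0.21, limma adjusted p = 0.43), and the tight junction gene Cldn4 had a difference of 1.01 (adjusted p = 0.212), with its highest signal, 412, on LZ63. The 3 tested Emp2 partners had a median of 0.06, with the integrin subunit Itgb1 at 0.19. Of 9 tested insulin-like growth factor genes (median 0.09), the receptor Igf1r had a difference of 0.42 (adjusted p = 0.36) and the binding protein Igfbp4 one of 0.19. Igf1r was higher on LZ61 to LZ63 than on LZ22 to LZ25 (1667 ± 162 against 1000.1 ± 178, 0.75, limma adjusted p = 0.0401), a call kept in 2 of 12 fits that leave out 1 array (AJ1 or LZ24).

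Of 16 tested regulators of the type 1 fate, 0 passed limma between the time points. Of these, 4 had a difference above 0 and 12 below, with a median of -0.10. Differences below 0 were common over all tested probe sets as well, with a median of -0.04 and 40.2% above the 0.01 of Igfbp2. Bmp4, a growth factor of lung development, read 1711 ± 205 and 1308 ± 172 (log2 difference -0.39, adjusted p = 0.147), and the forkhead factor Foxa1 read 976 ± 137 and 772 ± 61.2 (-0.33, adjusted p = 0.193). The 11 tested type 2 markers had a median of 0.14 between the time points, 9 of them above 0 and 0 past the test. The 2 below 0 were Cd36 at -0.46 and Lpcat1 at -0.29. The 75 brightest probe sets had a median of 0.23, against -0.04 over all tested probe sets. The part of the signal scale in the type 2 values was not tested.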

How the data were processed

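The authors deposited intensity values from MAS5, 1 per probe set and array, as the submitters' processing notes name that tool; its version, the scaling target and the build are not stated in what was used here. Trimmed means of the arrays differed by 0.00897% at most, so the values had been scaled before deposit and were not scaled again, which hides a change shared by most transcripts. Low MAS5 values are noisy, since mismatch signals are subtracted, and the small number of arrays limits precision.

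After removal of 66 control probe sets from 12488, 10833 had 1 gene symbol in the platform annotation, 396 had several and 1193 were unnamed. The deposited values were turned to log2 with no pseudocount. Those with a mean in the lowest 40 percent (a signal under about 108) were left out. Limma 3.58.1 in R 4.3.3 (trend and robust, with statmod 1.5.0) was fitted on all tested probe sets, two-sided, with Benjamini-Hochberg adjustment at 5% false discovery. The time points were fitted as 2 groups, and the comparisons within a time point in a fit of 4 title ranges. All adjusted p of single genes are from these fits, which were tested on simulated data first. Correlations used 100000 permutations. For a gene with several probe sets the brightest stood for it.

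The members and lists were chosen with earlier results of these data known. Named were all members and the 3 genes most like each member. For lists with genes named, these were up to 4 past the test or otherwise up to 2 with the smallest p. Some lists, such as the fibroblast and T cell markers, had no gene named by this rule. Hopx, S100a14, Msln, Wt1, Prox1, S100b, Itgb1, Cd36, Lpcat1, Aldh1a7, Gsta3 and the genes high on LZ63 were chosen after their values were seen. Other scalings, filters, weights, blocks and subsets of arrays were tried, and the closing section gives their effect.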

Additional observations from a re-analysis of the deposited data

How the results depend on the processing

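The Pdpn difference between time points lay between 0.45 and 0.59 in all 28 alternatives and passed in 5: quantile normalisation, array weights, without LZ63, AJ arrays only, and equal weight of title ranges (limma adjusted p 0.00831 to 0.551 over the alternatives). With a title prefix block its adjusted p was 0.551. These settings, without LZ63 aside, gave 1 gene of 4 past the test, and leaving out each array 0 to 1. The count over all probe sets was 17 after quantile normalisation, 550 with array weights, 443 with AJ arrays only, 134 with equal weights, 14 with LZ22 to LZ25 only, 12 with LZ61 to LZ63 only, 1 at 1% false discovery, with 3 arrays left out (LZ22, LZ24 and LZ63) or with the run day block, and 0 by the exact permutation test; leaving out each array it was 4 to 38 (38 without LZ2, 30 without LZ3, 16 without LZ62, 15 without LZ63).

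The sign turned for the time difference of Emp2 (-0.12 after quantile normalisation, -0.01 run day block, -0.37 prefix block, -0.15 LZ61 to LZ63 only, -0.06 equal weights, -0.05 to 0.14 leaving out each array), Igfbp2 (-0.12, 0 with the run day block, -0.24 LZ61 to LZ63 only, -0.02 equal weights, -0.08 to 0.11) and Ager (-0.04 quantile, -0.03 prefix block). With the prefix block it also turned for Qk (0.04), Hopx (0.01), Adam10 (0.05), Itgb1 (-0.10), Igfbp4 (-0.07) and Aqp1 (-0.05, -0.13 quantile, -0.03 LZ22 to LZ25 only, -0.06 to 0.05 leaving out each array), and for Flt4 at 0 after quantile normalisation and 0.01 with AJ arrays only (-0.10 to 0.02 leaving out each array).

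Between AJ and LZ arrays, 1 gene of 4 passed with equal medians, the 60th percentile filter, 3 arrays left out or only the arrays compared, 2 with array weights, and 0 to 1 leaving out each array. Over all probe sets, 186 became 121 with no filter, 776 with array weights, 24 at 1%, 380 with 3 arrays left out, 317 with only the arrays compared, and 0 (without LZ3) to 373 (without LZ63). With equal medians Pdpn was -0.03 and Igfbp2 -0.09 (-0.36 to 0.37 leaving out each array), and Ager was 0.04 after quantile normalisation. Between the ranges at 42 weeks, 112 became 292 with equal medians, 45 with no filter, 23 with no trend or robust, 0 at 1% or with only the arrays compared, 3 with 3 arrays left out, and 0 to 86 leaving out each array; Pdpn was 0.03 with 3 arrays left out. The cause of these changes was not tested. No paired analysis was possible because the groups share no replicate numbers. Time and run day cannot be told apart beyond the random block, and 1 probe set per gene gives no second reading.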
